A study of Homo sapiens with 11 samples.

Results

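The genes examined were 29 genes of cholesterol synthesis, uptake and transport, out of 58735 genes counted in each library. They were the rows whose Ensembl identifiers carry the 29 chosen symbols in GENCODE release 29, and all 29 passed the low-count filter in each comparison. RNA came from the established lines AsPC-1 and PANC-1, both grown from human pancreatic cancers, in which MYEOV, a gene at 11q13, was targeted with small interfering RNA (siRNA). For AsPC-1, grown in RPMI 1640, there were 2 libraries of control cells and 3 of siRNA cells, and for PANC-1, grown in DMEM, 3 of each, with 10% fetal bovine serum in both media. Poly(A) RNA was read as 150-base pairs, and the siRNA cells were taken 48 hours after lipofection. The controls are titled wild type and described as untreated, while a negative-control siRNA appears in the protocol, and whether the control cells were transfected cannot be told from the labels. A pair of MYEOV siRNAs is named in the protocol, and the labels do not tell which siRNA a numbered library received. They also leave unsaid whether replicates are separate cultures, and the p-values below then describe library-to-library spread that could be technical.

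Cells make cholesterol from acetyl-CoA through mevalonate, isoprenoids and squalene, and take it up in lipoproteins that are opened in the lysosome. Membrane sterol is sensed in the endoplasmic reticulum by SCAP, which carries the SREBP transcription factors to the Golgi for activation when sterol is low and is held back by the INSIG proteins when it is high. Active SREBP2 raises most genes of the pathway together, and spare cholesterol is stored as esters that can be hydrolysed again. Small RNAs bound to Argonaute pair with messenger RNAs through a short seed, so short words in the 3' untranslated region (UTR) are given below beside the counts.

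The sequences shown first are sites of a 7-base word, chosen from members that carry it. The 7-base word CTCATGT, taken from an earlier examination of these same data, was in the longest annotated 3' UTR of 8 of the 29 genes. Sites are printed for NPC2, NCEH1 and CYP51A1, which were lower in both lines, for HSD17B7, which was lower in PANC-1, for NPC1, which carries the word and was higher in AsPC-1, and for INSIG2, which carries it and was called in neither line. Each line gives 29 bases of the transcript 5′ to 3′ from GENCODE 29 (GRCh38), with the word in capitals.
NPC2, minus strand, chr14:74480079-74480107: tcagtggttgtCTCATGTctctttttctg
NCEH1, minus strand, chr3:172632078-172632106: aggaacacaagCTCATGTtctgagtgaag
CYP51A1, minus strand, chr7:92112979-92113007: gctaaagactgCTCATGTatcttgatcta
CYP51A1, minus strand, chr7:92112206-92112234: acactggaagaCTCATGTtaaactctaat
HSD17B7, plus strand, chr1:162792880-162792908: ggattttttttCTCATGTgattgtgcagc
NPC1, minus strand, chr18:23528786-23528814: tccagatgctgCTCATGTggctggtcagt
INSIG2, plus strand, chr2:118109374-118109402: atacataatttCTCATGTattcgtgtatc

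Annotated transcripts differ in whether they hold these sites. The word lay in 3 of 6 NPC2 transcripts with a 3' UTR, in 3 of 3 of NCEH1 and in 1 of 3 of CYP51A1. It was in 1 of 2 transcripts of HSD17B7, 1 of 6 of NPC1 and 1 of 2 of INSIG2. The HSD17B7 site lies near the start of its gene, which spans 162790702 to 162812817 on the plus strand. The NPC1 gene, on the minus strand, runs on to 23506184, well past its site. IDI1 and SOAT1 were the other carriers, with 1 site each. DHCR7, INSIG1 and STARD4 held the 6-base core TCATGT without the full word. The sequences of the siRNAs are not given in the sources used here, and no word was compared with them.

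Library totals ran from 12113093 to 15066456 counts on genes, and 22050 to 24025 genes were detected per library. Each pair of replicates differed by more than sampling noise, with PANC-1 control 2 farthest from its group (chi-square per degree of freedom of 5.97 and 4.87, against 1.67 to 3.69 for the other pairs). The target MYEOV was lower in each siRNA library than in each control library of its line, at 42.9 to 50.7 against 130 to 131 CPM (counts divided by the TMM-scaled library total) in AsPC-1 and at 35.8 to 39.8 against 64.4 to 75.1 CPM in PANC-1. Its log2 fold change was -1.48 (SE 0.06, edgeR quasi-likelihood test, adjusted p = 1.95e-16) in AsPC-1 and -0.88 (SE 0.07, adjusted p = 4.19e-06) in PANC-1. Of the 6 epithelial and ductal markers, KRT8, KRT18 and KRT19 were abundant in both lines, KRT7 stayed under 4 CPM in both, and EPCAM and CDH1 were at most 12.2 CPM in PANC-1. The 6 markers summed to 18078 to 18272 CPM in AsPC-1 controls and 18455 to 18967 after siRNA, and to 2265 to 2534 and 1931 to 1964 CPM in PANC-1. Of the 5 leukocyte markers CD3E was at 0 in all libraries and PTPRC at 0 in all but PANC-1 controls, where it reached 2 counts, and the AsPC-1 sum of 30.5 to 32.9 CPM was mostly LYZ. The 6 fibroblast markers summed to 296 to 310 CPM in AsPC-1 controls and 106 to 109 after siRNA, nearly all of it LUM, and to 33.7 to 40.4 and 46.9 to 48.6 CPM in PANC-1, and the 4 endothelial markers summed to under 1 CPM in each library. The part of these marker changes in the results was not tested.

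In AsPC-1, MYEOV siRNA was followed by higher counts for much of the synthesis pathway and by deep falls of 3 genes. Of the 29 members 13 rose, against 16.6% of the 14304 genes tested, and 5 fell, against 16.3% (edgeR, Benjamini-Hochberg adjusted p under 0.05). The other 11 were not called. The members' median log2 fold change was 0.07, beside -0.0024 over all genes tested. In PANC-1, 1 member rose, INSIG1, against 4.16% of the 14929 genes tested, and 5 fell, against 4.92%, leaving 23 not called. The median there was -0.04, beside -0.0014 over all genes. Replicates scattered more in PANC-1, where edgeR put their spread beyond counting noise at 6.08%, against 2.77% in AsPC-1. A change of a given size was thus harder to call in PANC-1. Counts came from whole cultures, in which fewer cells of a kind and less RNA per cell cannot be told apart. The count of called members in PANC-1 was 3 without siRNA library 1, 3 without siRNA library 2 and 3 without siRNA library 3, each time NPC2, NCEH1 and CYP51A1.

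**Figure D1:**
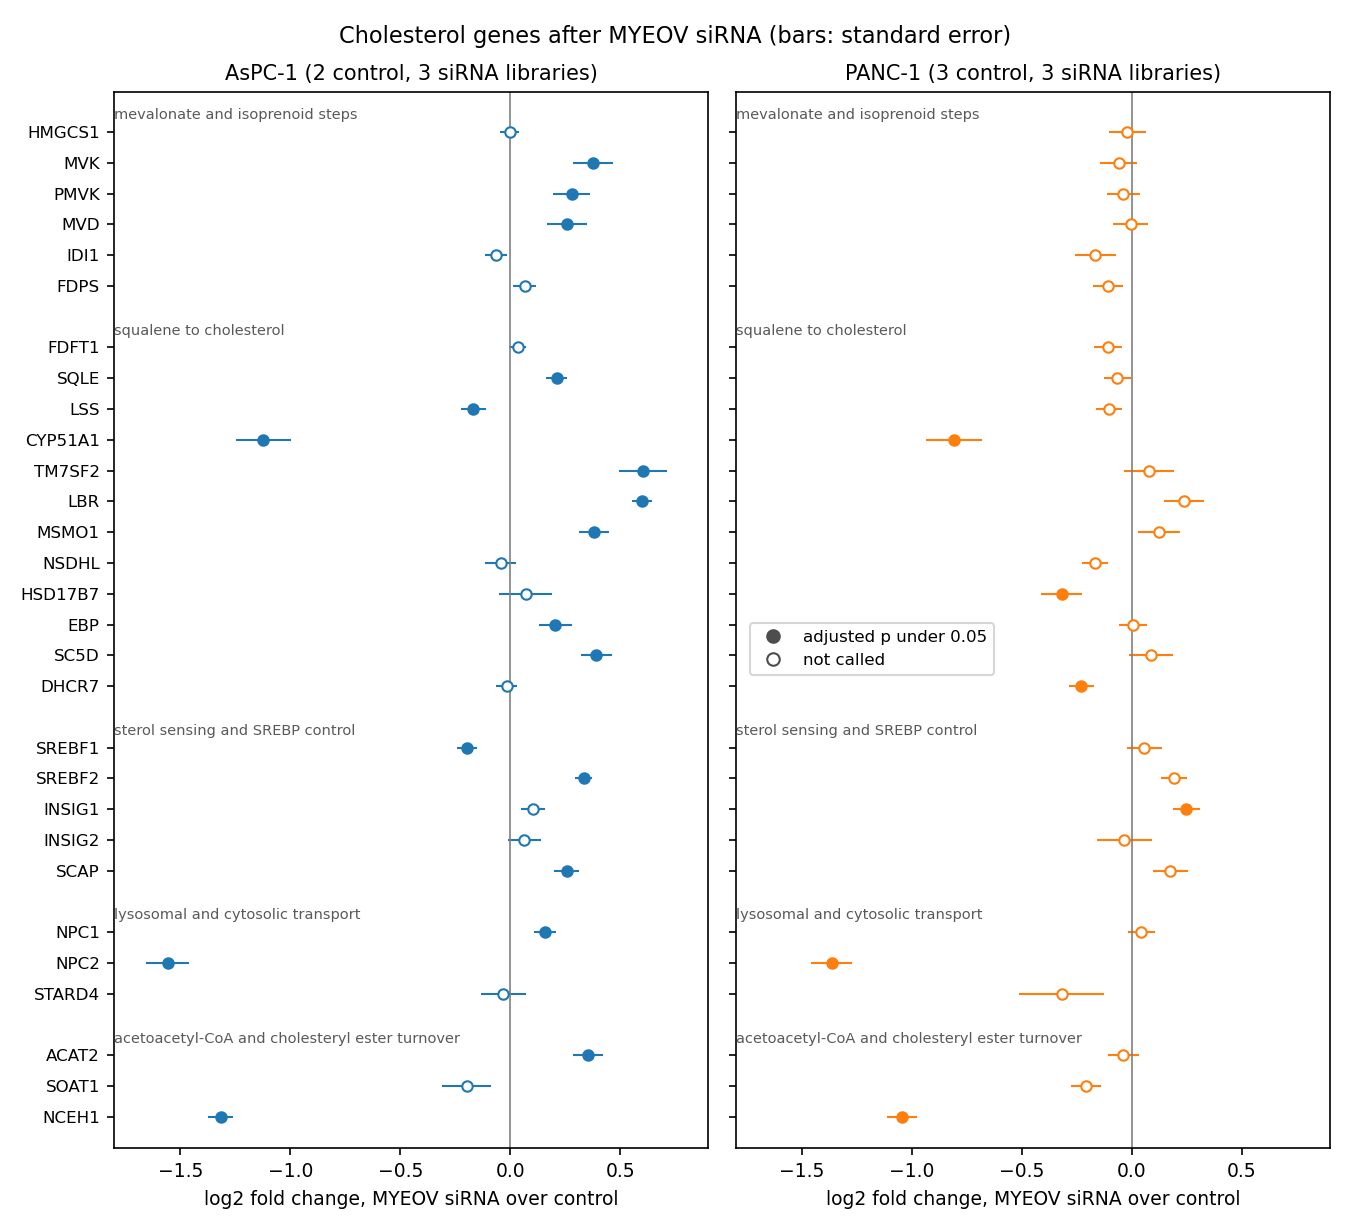
Log2 fold change of each of the 29 genes (siRNA over control), by role from top to bottom, in AsPC-1 (left) and PANC-1 (right). Points are edgeR estimates, bars are standard errors and filled points have an adjusted p under 0.05. NPC2, NCEH1 and CYP51A1 lie far to the left in both panels, at -1.56, -1.32 and -1.12 in AsPC-1 and at -1.37, -1.05 and -0.81 in PANC-1.

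NPC2, NCEH1 and CYP51A1 fell in both lines, and no library is shared between the lines. The members were chosen with earlier results of these data known, so their shares beside all genes, here and elsewhere, are a description. The 3 genes made up 10.3% of the members, beside 3.97% of the 12893 genes tested in both lines that fell in both. By edgeR 0 members rose in both lines, where 2.78% of those genes did, and DESeq2 also called 0, while 3 members (LBR, SCAP and SREBF2) were higher in both at an unadjusted edgeR p under 0.05. NPC2 is the soluble lysosomal protein that takes up cholesterol freed from lipoproteins and passes it to NPC1. Its gene (ENSG00000119655) lies on chromosome 14 from 74476192 to 74494177 on the minus strand.

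In AsPC-1, NPC2 stood at 31.8 and 34.4 CPM in the controls and at 9.71, 12.7 and 11.6 CPM in the siRNA libraries (TMM-normalised over all 11 libraries, as are all CPM values here). In PANC-1 it stood at 26.7, 23.7 and 27.9 CPM and then at 9.75, 10.4 and 10.4 CPM. All siRNA libraries of both lines lay below all controls, and the siRNA levels of the lines came close to each other. The log2 fold change was -1.56 (SE 0.10, edgeR adjusted p = 5.6e-12) in AsPC-1, which left 34.0% of control, and -1.37 (SE 0.09, edgeR adjusted p = 1.09e-06) in PANC-1, which left 38.8%. The opposite-strand gene ISCA2 overlaps 3.75% of the NPC2 exon sequence and was called in neither line (log2 fold change -0.01 and 0.07).

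NCEH1 encodes the hydrolase that frees cholesterol from its esters at the endoplasmic reticulum. The gene (ENSG00000144959) lies on chromosome 3 from 172630249 to 172711218 on the minus strand and shares no exon sequence with another counted gene. AsPC-1 controls held 93.1 and 94.7 CPM of NCEH1 and the siRNA libraries 38.0, 39.4 and 36.8 CPM. PANC-1 controls held 183, 206 and 169 CPM and the siRNA libraries 87.6, 88.5 and 94.2 CPM. The groups did not overlap in either line, and after siRNA PANC-1 still held about what AsPC-1 controls held. NCEH1 fell by 1.32 on the log2 scale in AsPC-1 (SE 0.06, edgeR adjusted p = 1.6e-15) and by 1.05 in PANC-1 (SE 0.07, edgeR adjusted p = 8.84e-07).

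CYP51A1 encodes lanosterol demethylase, the cytochrome P450 that acts on the first sterol of the pathway. The gene (ENSG00000001630) lies on chromosome 7 from 92112151 to 92134803 on the minus strand, and 79.4% of its exon sequence is shared on the same strand with 2 other annotated genes that had 0 counts in each library. The sources used here do not give how the authors' counting treated reads in shared exons, so its level may cover only part of the gene, and 3 pseudogenes carry its name. The AsPC-1 controls gave 14.4 and 16.7 CPM (190 and 188 counts) of CYP51A1 and the siRNA libraries 7.87, 7.23 and 6.45 CPM (94, 88 and 78 counts). Values in PANC-1 were 10.2, 8.81 and 10.2 CPM in controls and 6.01, 5.61 and 5.03 CPM after siRNA. Again no siRNA library reached a control of its line. The log2 fold change was -1.12 (SE 0.13, edgeR adjusted p = 1.31e-07) in AsPC-1 and -0.81 (SE 0.13, edgeR adjusted p = 0.00129) in PANC-1.

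The fitted changes of these 3 genes were further below 0 in AsPC-1, but none of the 3 differences between lines passed the edgeR interaction test. The difference (PANC-1 minus AsPC-1, log2) was 0.18 (SE 0.15, adjusted p = 0.599) for NPC2, 0.26 (SE 0.10, adjusted p = 0.157) for NCEH1 and 0.30 (SE 0.18, adjusted p = 0.431) for CYP51A1, which does not show that the falls were equal. Without PANC-1 control 2 the NCEH1 difference was 0.36 (edgeR adjusted p = 0.00439). For MYEOV itself the difference was 0.59 (SE 0.10, edgeR adjusted p = 0.00153).

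**Figure D2:**
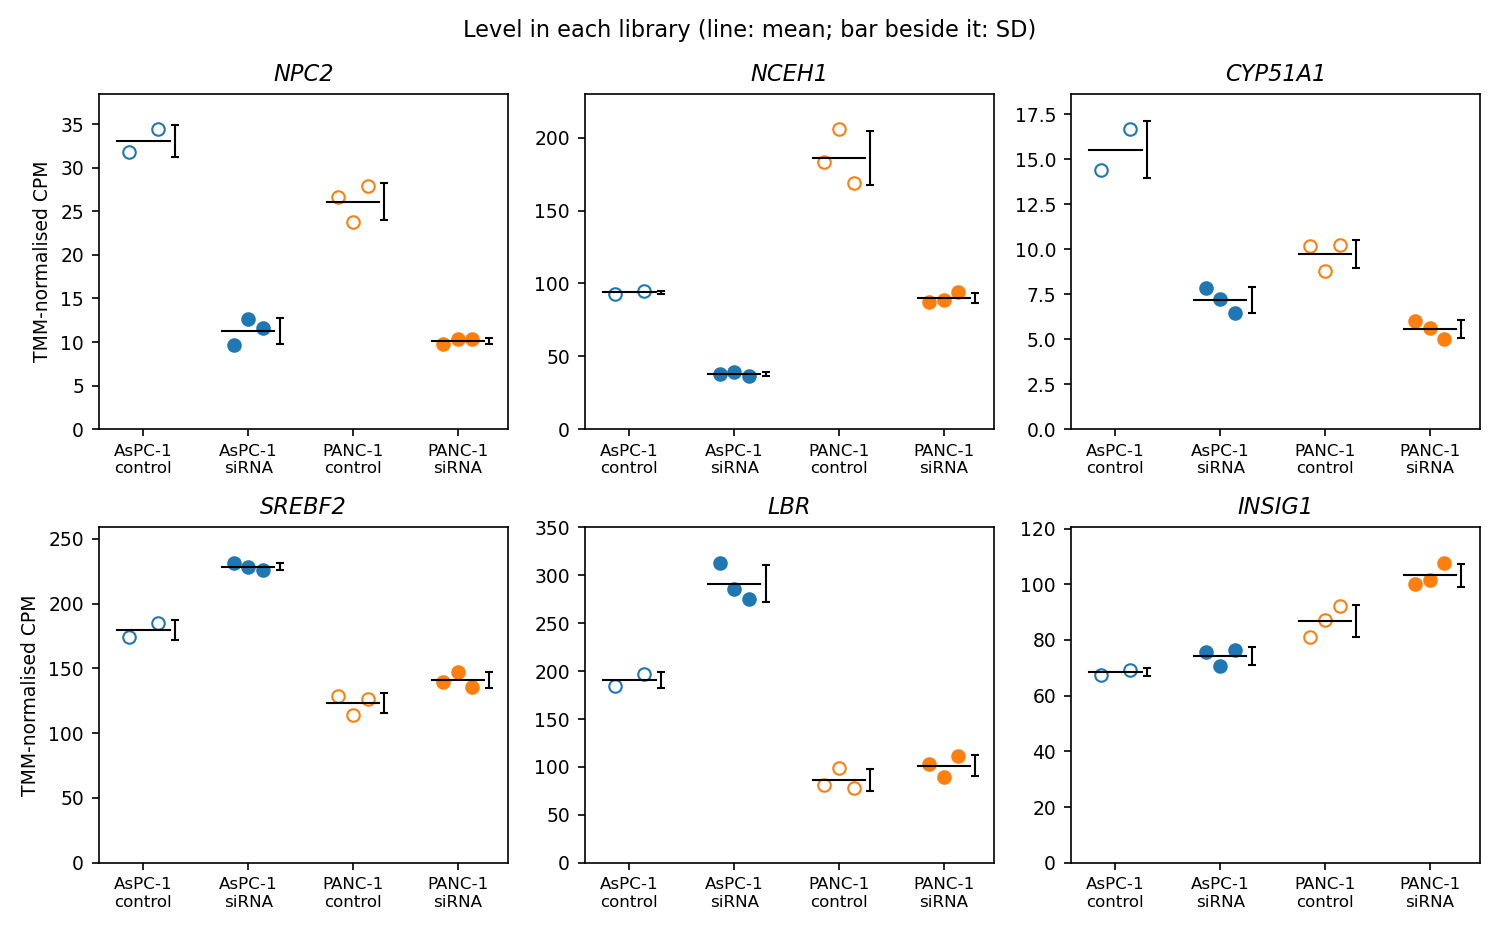
TMM-normalised CPM of 6 genes in each library, with 1 point per library, a line at the group mean and a bar of 1 SD beside it, and open points for controls. NPC2, NCEH1 and CYP51A1 are lower in all siRNA libraries of both lines, SREBF2 is higher in all siRNA libraries of both lines, LBR separates fully in AsPC-1 and overlaps in PANC-1, and INSIG1 lies above the controls in both.

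The mevalonate and isoprenoid steps turn acetoacetyl-CoA into farnesyl diphosphate. Of these 6 genes 3 rose in AsPC-1, namely the mevalonate kinase MVK, the phosphomevalonate kinase PMVK and the decarboxylase MVD, which act in a row, and in PANC-1 edgeR called 0 of the 6 in either direction, with 0 at an unadjusted p under 0.05 and 0 by DESeq2. MVK read 17.5 and 19.6 CPM in AsPC-1 controls and 25.0, 24.6 and 23.2 CPM after siRNA, and 27.6, 27.4 and 26.7 against 26.8, 28.3 and 23.2 CPM in PANC-1. PMVK read 23.7 and 28.1 CPM in AsPC-1 controls and 30.8, 31.6 and 32.3 CPM after siRNA, and 30.8, 32.2 and 28.9 against 28.5, 29.4 and 31.9 CPM in PANC-1. MVD read 22.1 and 28.2 CPM in AsPC-1 controls and 29.6, 31.5 and 29.3 CPM after siRNA, and 42.8, 34.8 and 40.2 against 38.6, 38.4 and 40.7 CPM in PANC-1. For each of the 3 the AsPC-1 groups were separate and the PANC-1 groups overlapped, and the siRNA levels in AsPC-1 came nearer to those of PANC-1. The 3 genes were picked by their AsPC-1 calls, so the separation adds no support. The share of all genes with separate groups is not given here, for these or the other members. The difference between lines was called for MVK, as given below, but not for PMVK (edgeR interaction adjusted p = 0.131) or MVD (0.3).

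The log2 fold changes in AsPC-1 were 0.38 for MVK (SE 0.09, edgeR adjusted p = 0.00203), 0.28 for PMVK (SE 0.08, edgeR adjusted p = 0.0111) and 0.26 for MVD (SE 0.09, edgeR adjusted p = 0.0324). The AsPC-1 controls differed among themselves for PMVK and MVD, and without AsPC-1 control 1 the values were 0.29 for MVK (edgeR adjusted p = 0.0785), 0.15 for PMVK (0.324) and 0.07 for MVD (0.658). Without AsPC-1 control 2 the MVD value was 0.44, and without siRNA library 2 it was 0.22 (edgeR adjusted p = 0.116). PMVK and MVD were not called by DESeq2 either (adjusted p = 0.0676 and 0.131), nor MVD in 1 edgeR fit over all groups (0.0722). HMGCS1, the HMG-CoA synthase and a known target of SREBP2, read 103 to 107 CPM in all AsPC-1 libraries and 37.0 to 45.8 CPM in all PANC-1 libraries, with log2 fold changes of -0.0028 and -0.02. IDI1 and FDPS, which make and join the isoprenoid units, were called in neither line, with log2 fold changes between -0.16 and 0.07.

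From squalene to cholesterol, 6 of 12 enzymes rose and 2 fell in AsPC-1, while 0 rose and 3 fell in PANC-1. The share that fell in AsPC-1, 16.7%, was near the 16.3% of all genes, while the 50.0% that rose stood beside 16.6%. In PANC-1 25.0% fell, beside 4.92% of all genes, and 0 rose, beside 4.16%. DESeq2 also called 0 higher in PANC-1, and at an unadjusted edgeR p under 0.05 there was 1, LBR. The largest rises were of TM7SF2 and LBR, which encode sterol reductases for the same step after CYP51A1. LBR is also the lamin B receptor of the inner nuclear membrane. LBR stood at 185 and 197 CPM in AsPC-1 controls and at 313, 286 and 276 CPM in the siRNA libraries, the largest rise in CPM among the synthesis genes. In PANC-1 it stood at 80.9, 99.2 and 78.3 CPM in controls and at 103, 89.9 and 111 CPM after siRNA, so that the groups overlapped. TM7SF2 went from 11.2 and 10.1 CPM to 16.7, 16.9 and 15.6 CPM in AsPC-1, and read 23.8, 18.9 and 27.7 against 25.2, 23.6 and 25.7 CPM in PANC-1. All AsPC-1 siRNA libraries were above both controls for each gene, by 0.60 for TM7SF2 (SE 0.11, edgeR adjusted p = 0.000118) and 0.60 for LBR (SE 0.05, edgeR adjusted p = 1.96e-10) on the log2 scale. In PANC-1 the values were 0.08 for TM7SF2 (edgeR adjusted p = 0.749) and 0.24 for LBR (0.129). LBR in PANC-1 was called without control 2 (0.35, edgeR adjusted p = 0.00474) and with no low-count filter (0.23, adjusted p = 0.0138).

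MSMO1, a sterol methyl oxidase, and SC5D, a late desaturase, also rose in AsPC-1. MSMO1 stood at 57.1 and 50.6 CPM in AsPC-1 controls and at 78.7, 67.9 and 66.7 CPM after siRNA, and at 42.2, 57.0 and 50.0 against 57.2, 50.4 and 54.6 CPM in PANC-1. SC5D stood at 35.0 and 41.0 CPM in AsPC-1 controls and at 50.5, 48.0 and 52.0 CPM after siRNA, and at 50.8, 62.2 and 46.4 against 57.3, 50.2 and 61.6 CPM in PANC-1. The AsPC-1 groups were separate for both genes and the PANC-1 groups overlapped. Their log2 fold changes in AsPC-1 were 0.38 (SE 0.07, edgeR adjusted p = 8.19e-05) for MSMO1 and 0.39 (SE 0.07, edgeR adjusted p = 0.000125) for SC5D, and in PANC-1 0.12 (0.476) and 0.09 (0.659).

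SQLE, the squalene epoxidase that limits the rate of this stage, and EBP, a sterol isomerase, rose less. SQLE held 80.9 and 81.3 CPM in AsPC-1 controls and 92.8, 96.6 and 95.0 CPM after siRNA, and 78.2, 79.4 and 75.0 against 70.0, 77.1 and 75.4 CPM in PANC-1. EBP held 38.6 and 33.0 CPM in AsPC-1 controls and 41.9, 43.7 and 40.0 CPM after siRNA, and 56.1, 54.3 and 54.4 against 52.1, 54.6 and 59.0 CPM in PANC-1. Both were separate from the controls in AsPC-1 and overlapped them in PANC-1. SQLE rose by 0.21 (SE 0.05, edgeR adjusted p = 0.00125) and EBP by 0.21 (SE 0.07, edgeR adjusted p = 0.032) on the log2 scale. The EBP value was 0.11 without AsPC-1 control 2 (edgeR adjusted p = 0.389), 0.18 without siRNA library 2 (0.115) and 0.32 without AsPC-1 control 1, and EBP was not called by DESeq2 (adjusted p = 0.126) or in 1 edgeR fit over all groups (0.0553).

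LSS, the lanosterol synthase, fell by 0.17 on the log2 scale in AsPC-1 (SE 0.06, edgeR adjusted p = 0.0225), from 82.6 and 81.9 CPM to 72.4, 80.1 and 69.4 CPM. In PANC-1 LSS stood at 107, 93.5 and 102 CPM in controls and at 92.7, 94.1 and 94.1 CPM after siRNA, with overlapping groups. The LSS call was lost without AsPC-1 control 1 (edgeR adjusted p = 0.131), control 2 (0.125), siRNA library 1 (0.0628) or siRNA library 3 (0.112), with DESeq2 (0.104) and in 1 edgeR fit over all groups (0.12).

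DHCR7 and HSD17B7 were called lower in PANC-1 and were not called in AsPC-1. DHCR7 encodes the reductase that completes cholesterol in one branch of the pathway, and HSD17B7 a sterol ketoreductase. DHCR7 went from 137, 125 and 142 CPM to 113, 118 and 114 CPM in PANC-1, and read 98.7 and 107 against 104, 104 and 101 CPM in AsPC-1. HSD17B7 went from 21.1, 21.8 and 18.3 CPM to 16.6, 17.1 and 15.3 CPM in PANC-1, and read 12.8 and 10.1 against 12.2, 12.6 and 11.9 CPM in AsPC-1. The PANC-1 groups did not overlap for either gene and the AsPC-1 groups did. The log2 fold changes in PANC-1 were -0.23 (SE 0.06, edgeR adjusted p = 0.0244) and -0.32 (SE 0.09, edgeR adjusted p = 0.0498). Over all alternatives they stayed between -0.28 and -0.19 for DHCR7 and between -0.39 and -0.27 for HSD17B7, but the calls did not hold. The DHCR7 call was lost without any of the 3 siRNA libraries, control 1 or control 3 (edgeR adjusted p = 0.0527 to 0.125). That of HSD17B7 was lost without any of the 3 siRNA libraries, control 1 or control 2 (edgeR adjusted p = 0.08 to 0.164), under RLE scaling (0.0514), under upper-quartile scaling (0.0563) and with DESeq2 (0.0903). The difference between lines was -0.23 for DHCR7 (edgeR adjusted p = 0.124) and -0.40 for HSD17B7 (0.171). HSD17B7 also has 2 pseudogenes of its name. FDFT1, the squalene synthase, and NSDHL, a decarboxylating sterol dehydrogenase, were called in neither line, with log2 fold changes between -0.17 and 0.03, although the PANC-1 groups of NSDHL did not overlap (55.4 to 58.3 CPM in controls, 48.9 to 51.9 after siRNA).

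Summed over the 18 synthesis genes, the level was 1165 to 1176 CPM in AsPC-1 controls and 1307 to 1364 CPM in its siRNA libraries. The mean of the sum in AsPC-1 rose from 1170.3 to 1334.5 CPM. Most of that rise was LBR, whose mean went from 191 to 291 CPM. In PANC-1 the sum was 977.7 to 999 CPM in controls and 936 to 980 CPM after siRNA. The AsPC-1 groups were separate and the PANC-1 groups overlapped. The synthesis genes had 9 of 18 calls higher (50.0%, beside 16.6% of all genes) and 2 lower (11.1%, beside 16.3%) in AsPC-1. In PANC-1 0 were called higher (beside 4.16%) and 3 lower (16.7%, beside 4.92%). With the wider scatter of PANC-1 replicates, these counts and the overlap of groups cannot by themselves show a difference between lines. The direct edgeR test of that difference called 2 of the 18, MVK and SQLE, and neither call held without each library in turn.

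Among the sensors and regulators, SREBF2, which encodes the SREBP of cholesterol genes, rose in AsPC-1 and was on the same side in PANC-1. SREBF2 (chromosome 22, 41833079 to 41907308, plus strand) stood at 174 and 185 CPM in AsPC-1 controls and at 231, 228 and 226 CPM after siRNA. In PANC-1 it stood at 128, 114 and 127 CPM and then at 139, 148 and 136 CPM. No siRNA library overlapped a control of its line. The log2 fold change of SREBF2 was 0.33 (SE 0.04, edgeR adjusted p = 3.45e-07) in AsPC-1 and 0.19 (SE 0.06, edgeR adjusted p = 0.0584) in PANC-1, and the PANC-1 value was called in 1 edgeR fit over all groups (0.19, adjusted p = 0.0148). The difference between lines was -0.15 (SE 0.08, edgeR adjusted p = 0.305).

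SREBF1, which encodes the SREBP forms that favour fatty acid genes, fell in AsPC-1. SREBF1 read 248 and 249 CPM in AsPC-1 controls and 209, 239 and 211 CPM after siRNA, and 229, 207 and 269 against 228, 248 and 258 CPM in PANC-1. The AsPC-1 groups were separate and the PANC-1 groups overlapped. Its log2 fold change was -0.20 in AsPC-1 (SE 0.05, edgeR adjusted p = 0.00145), which was not called in 1 edgeR fit over all groups (adjusted p = 0.122), and 0.06 in PANC-1 (SE 0.08, edgeR adjusted p = 0.734). SCAP, the escort and sterol sensor of the SREBPs, rose in AsPC-1 from 55.2 and 52.9 CPM to 65.6, 67.1 and 63.2 CPM. In PANC-1 SCAP read 61.7, 49.9 and 52.7 CPM in controls and 64.6, 63.3 and 57.9 CPM after siRNA, where control 1 lay within the siRNA range. The SCAP values were 0.26 (SE 0.06, edgeR adjusted p = 0.000824) and 0.18 (SE 0.08, edgeR adjusted p = 0.202) on the log2 scale, and without PANC-1 control 1 the second was 0.27 (adjusted p = 0.0495).

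INSIG1, which retains SCAP in the endoplasmic reticulum and is itself a target of the SREBPs, was the only member called higher in PANC-1. INSIG1 rose there from 80.9, 87.3 and 92.2 CPM to 100.2, 102 and 108 CPM. In AsPC-1 it read 67.4 and 69.4 CPM in controls and 75.7, 70.6 and 76.5 CPM after siRNA. The groups did not overlap in either line. The log2 fold change of INSIG1 was 0.25 in PANC-1 (SE 0.06, edgeR adjusted p = 0.0234) and 0.10 in AsPC-1 (SE 0.05, edgeR adjusted p = 0.146). The PANC-1 call was lost without control 1 or any of the 3 siRNA libraries (edgeR adjusted p = 0.0524 to 0.102). INSIG2, its close relative, had log2 fold changes of 0.06 and -0.03 and was called in neither line.

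In lysosomal and cytosolic transport NPC1 rose in AsPC-1 while its partner NPC2 fell. NPC1, the membrane protein that receives cholesterol from NPC2, stood at 74.9 and 74.2 CPM in AsPC-1 controls and at 85.8, 85.3 and 81.4 CPM after siRNA. In PANC-1 it stood at 80.2, 76.1 and 76.8 CPM and then at 81.1, 84.7 and 74.4 CPM, with overlapping groups. NPC1 rose by 0.16 on the log2 scale in AsPC-1 (SE 0.05, edgeR adjusted p = 0.0157) and had a value of 0.04 in PANC-1 (SE 0.06, edgeR adjusted p = 0.742). The AsPC-1 call was lost without control 1 (edgeR adjusted p = 0.106), without control 2 (0.0855), with DESeq2 (0.0833) and in 1 edgeR fit over all groups (0.0545). STARD4, a cytosolic sterol carrier, was called in neither line (log2 fold change -0.03 and -0.32), with only 62 to 107 counts in PANC-1 libraries.

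Of the 3 genes of acetoacetyl-CoA and cholesteryl ester turnover, ACAT2 rose in AsPC-1, NCEH1 fell in both lines and SOAT1 was called in neither. ACAT2 encodes the cytosolic thiolase that makes acetoacetyl-CoA. ACAT2 went from 34.6 and 36.2 CPM to 45.9, 44.1 and 47.1 CPM in AsPC-1, which was 0.35 on the log2 scale (SE 0.07, edgeR adjusted p = 0.000186). In PANC-1 ACAT2 read 70.5, 70.1 and 59.9 CPM in controls and 65.6, 66.8 and 62.7 CPM after siRNA. The groups were separate in AsPC-1 and overlapped in PANC-1. Opposite-strand genes cover 52.3% of the ACAT2 exon sequence, and with the strand setting of the counting not given in the sources used here, reads from them cannot be told apart. SOAT1, which makes cholesteryl esters, had log2 fold changes of -0.20 (SE 0.11, edgeR adjusted p = 0.186) in AsPC-1 and -0.21 (SE 0.07, edgeR adjusted p = 0.0696) in PANC-1. SOAT1 was called lower in AsPC-1 without siRNA library 1 (-0.32, edgeR adjusted p = 0.026), and in PANC-1 without control 3 (-0.27, 0.0436) and with no low-count filter (-0.21, 0.0441).

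The response differed between lines for 3 members, each called higher in AsPC-1 and not called in PANC-1. With all 4 groups in 1 edgeR fit, 0 of 29 members had a higher response in PANC-1, against 2.07% of 16680 genes, and 3 had a lower one, against 2.28%. DESeq2 likewise called 0 with a higher response in PANC-1, and 2 members, SREBF1 and NCEH1, had one at an unadjusted edgeR p under 0.05. The difference (PANC-1 minus AsPC-1, log2) was -0.45 for MVK (SE 0.13, adjusted p = 0.0447), -0.29 for SQLE (SE 0.08, adjusted p = 0.038) and -0.41 for ACAT2 (SE 0.10, adjusted p = 0.0254). Among all members 23 of 29 differences were negative, with a median of -0.16, beside 8757 of 16680 and a median of -0.02 over all genes tested. All these differences rest on the same 2 AsPC-1 controls, so their signs are not independent. The largest difference that was not called was that of TM7SF2, -0.54 (SE 0.17, edgeR adjusted p = 0.0871), which was called without PANC-1 control 2 (-0.64, adjusted p = 0.00439) and with no low-count filter (-0.55, 0.0202).

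None of the 3 calls held without each library in turn. The MVK call was lost without any single library other than PANC-1 siRNA library 2 (edgeR adjusted p = 0.0521 to 0.284). For SQLE it was lost without any single library other than PANC-1 control 3 and PANC-1 siRNA library 3 (0.0518 to 0.171). For ACAT2 it was lost without AsPC-1 control 1, AsPC-1 control 2, AsPC-1 siRNA library 1, AsPC-1 siRNA library 3, PANC-1 siRNA library 1 or PANC-1 siRNA library 3 (0.0541 to 0.17). MVK and SQLE were also not called under RLE scaling (0.0573 and 0.0525), upper-quartile scaling (0.0639 and 0.0625) or DESeq2 (0.0819 and 0.0537). Without single libraries other differences were called. Besides TM7SF2 and NCEH1 without PANC-1 control 2, given above, those were LBR without PANC-1 control 3 (-0.44, edgeR adjusted p = 0.0408) or PANC-1 siRNA library 3 (-0.44, 0.0364), DHCR7 without PANC-1 control 2 (-0.25, 0.0315) and SREBF1 without PANC-1 control 3 (0.35, 0.0336). With all libraries kept, the LBR difference was also called by DESeq2 (-0.36, adjusted p = 0.0421). With no low-count filter edgeR called LBR (-0.38, adjusted p = 0.00017) and SREBF1 (0.23, 0.0437). The count of called differences was 4 without PANC-1 control 2 and 4 without PANC-1 control 3.

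**Figure D3:**
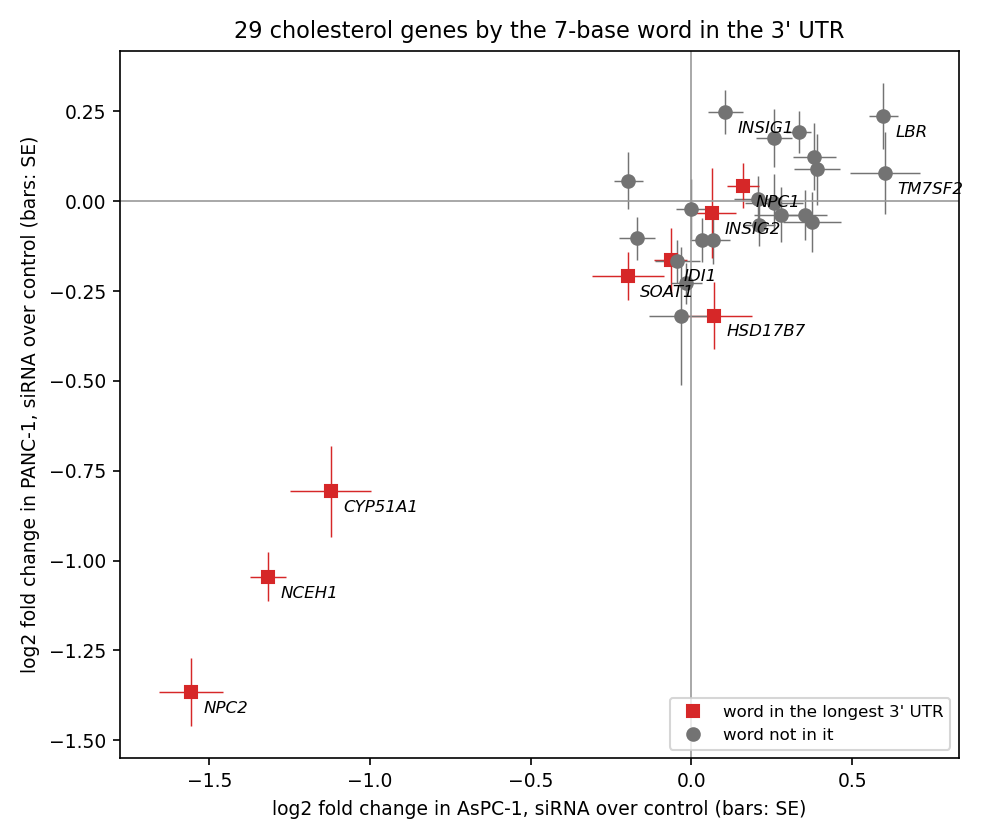
Log2 fold change of the 29 genes in AsPC-1 (horizontal) against PANC-1 (vertical), with standard errors as bars and squares for the 8 genes that hold the 7-base word in their longest 3' UTR. NPC2, NCEH1 and CYP51A1 are squares far down on the left, while NPC1, INSIG2 and IDI1 are squares near 0, and the other genes lie between -0.20 and 0.60 in AsPC-1 and between -0.32 and 0.25 in PANC-1.

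The 8 carriers of CTCATGT, printed above for 6 of them, are set beside the 21 other members. In AsPC-1, 1 carrier rose and 3 fell, with a median log2 fold change of -0.13, while 12 of the other 21 rose and 2 fell, with a median of 0.21. In PANC-1, 0 carriers rose by edgeR (0 at an unadjusted p under 0.05 and 0 by DESeq2) and 4 fell (NPC2, NCEH1, CYP51A1 and HSD17B7), with a median of -0.26, while 1 of the other 21 rose and 1 fell, with a median of -0.02. HSD17B7 counts as a carrier through 1 of its 2 transcripts with a 3' UTR, with the site near the start of the gene. NPC1 counts as a carrier through 1 of 6. Among all genes with a 3' UTR tested in AsPC-1, 12.9% carried the word. Of those 1536 carriers 13.1% rose and 36.2% fell, beside 19.0% and 17.8% of all genes with a 3' UTR. Of the 1619 carriers tested in PANC-1 3.64% rose and 19.4% fell, beside 4.78% and 5.5%. The word was chosen on these data, so these counts are a description, and the part of the word in the falls was not tested.

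The sterol regulatory element TCACNCCAC, searched on both strands of RefSeq promoter windows (GRCh38.p14, 250 bases before to 50 after the start), was found in 1 of the 26 members with a window. It was the window of SREBF2, a gene known to respond to its own product, and the site is shown because SREBF2 was higher in all siRNA libraries of both lines.
SREBF2, plus strand, chr22:41832962-41832990: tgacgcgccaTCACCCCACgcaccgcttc
The capitals mark the match. Among the members 1 of 33 windows held it. Over all promoters 396 of 35116 windows (1.13%) and 379 of 27305 genes (1.39%) did. No match elsewhere says only that these letters are not in those windows.

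Between AsPC-1 and PANC-1 controls 9 members were higher in AsPC-1, against 36.1% of 16182 genes, and 13 were lower, against 40.3%, and 7 were not called, so that calls among the members were about as frequent as among all genes. Cell line and growth medium changed together and cannot be told apart. STARD4 (log2 difference 2.03, SE 0.14, edgeR adjusted p = 2.78e-09) and INSIG2 (1.95, SE 0.10, adjusted p = 1.03e-10) were the farthest above PANC-1. FDFT1 (1.48), HMGCS1 (1.38) and LBR (1.17) followed, each past the same test. IDI1 (0.69), CYP51A1 (0.69), SREBF2 (0.57) and NPC2 (0.36) were also higher in AsPC-1.

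In the other direction SOAT1 was at 19.4 and 19.4 CPM in AsPC-1 controls and at 80.6, 84.4 and 72.7 CPM in PANC-1 controls, a log2 difference of -2.00 (SE 0.09, edgeR adjusted p = 2.7e-11). TM7SF2 (-1.12), NCEH1 (-0.96) and ACAT2 (-0.89) were lower in AsPC-1 as well. All 3 genes of acetoacetyl-CoA and cholesteryl ester turnover were thus higher in PANC-1 controls. Of the 12 enzymes from squalene onward 7 were lower and 3 higher in AsPC-1, whereas the sensors and regulators had 2 higher and 1 lower. PMVK (-0.22, adjusted p = 0.0545) was near the threshold and was called without AsPC-1 control 2 (-0.35, edgeR adjusted p = 0.0293), PANC-1 control 2 (-0.20, 0.0476) or PANC-1 control 3 (-0.27, 0.0418). MSMO1 was called without PANC-1 control 2 (0.24, adjusted p = 0.00687) and SREBF1 without PANC-1 control 3 (0.21, adjusted p = 0.0166).

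**Figure D4:**
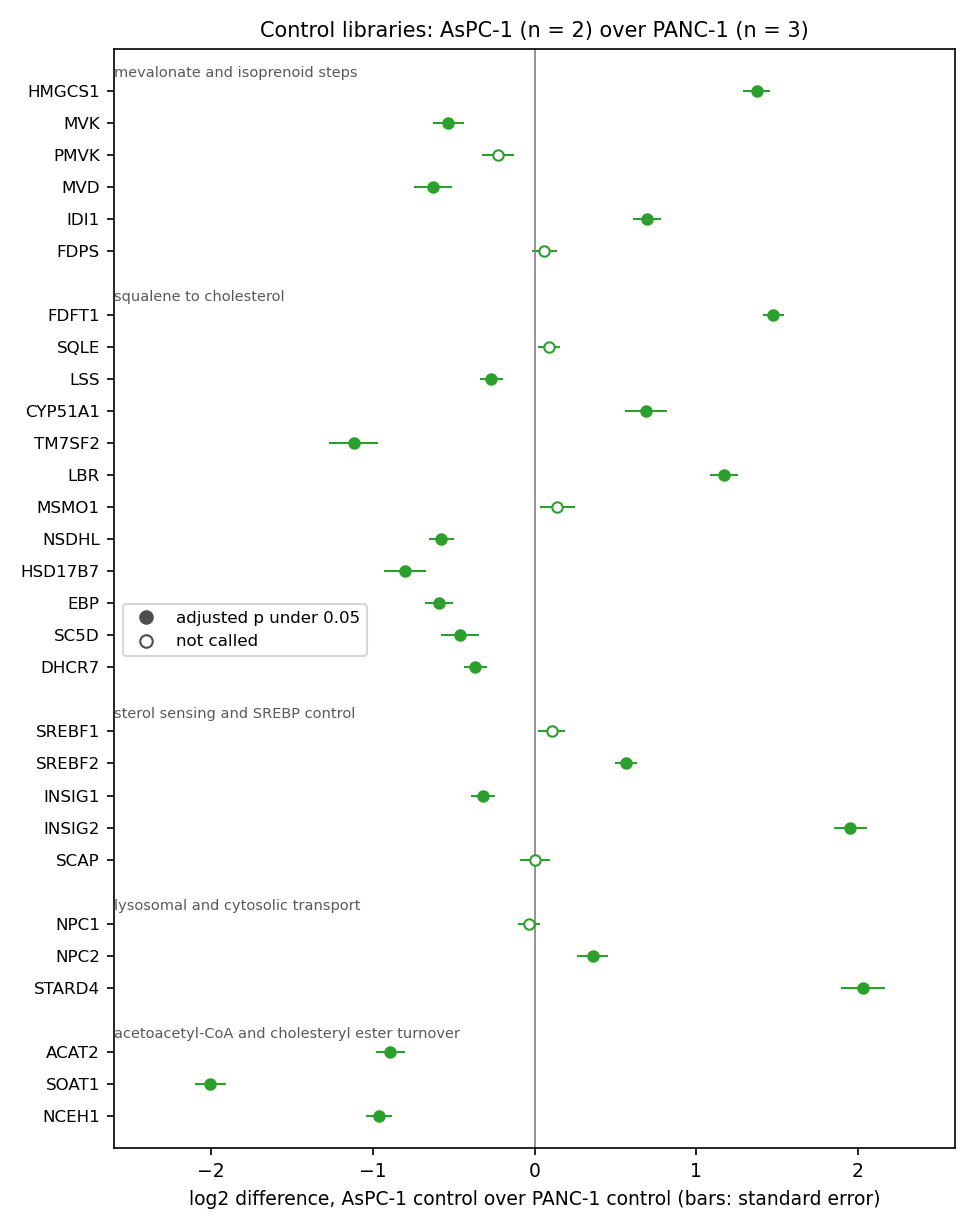
Log2 difference of each of the 29 genes between the control libraries (AsPC-1 over PANC-1, n = 2 and 3), by role from top to bottom, with bars of 1 standard error and filled points for an adjusted p under 0.05. STARD4, INSIG2, FDFT1, HMGCS1 and LBR lie beyond 1 to the right, and SOAT1 and TM7SF2 beyond -1 to the left.

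On a scale of CPM per kilobase of exon sequence, FDFT1 (36.9 ± 1.7, SD, n = 2) and LBR (36.3 ± 1.6) were the highest members in AsPC-1 controls and did not differ beyond their spread. SREBF1 (31.0 ± 0.10) came next, and HSD17B7 (2.40 ± 0.40), SOAT1 (2.77 ± 0.018) and MVK (2.86 ± 0.22) were lowest. In PANC-1 controls NCEH1 (38.7 ± 3.9, n = 3) was highest, followed by DHCR7 (32.4 ± 2.1), SREBF1 (29.2 ± 3.9) and NSDHL (28.3 ± 0.80), the last 3 within 1 SD of a neighbour. STARD4 (1.2 ± 0.16) was lowest there. The order depends on the gene model. Per kilobase of the longest transcript, AsPC-1 controls had FDFT1 at 72.2, SREBF1 at 53.5 and LBR at 50.0, so that SREBF1 came before LBR, and SOAT1 (2.83) was below HSD17B7 (3.71). On that scale PANC-1 controls had DHCR7 and SREBF1 both at 50.5, above NCEH1 at 39.7, with FDPS (33.8) and EBP (31.0) before NSDHL (29.3), and STARD4 (1.48) still lowest.

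Lists of related genes are given by their counts, to be read against 16.6% higher and 16.3% lower over all genes in AsPC-1 and 4.16% and 4.92% in PANC-1. Of 10 genes of SREBP processing and sterol-regulated degradation 4 rose and 1 fell in AsPC-1, led by the COPII coat gene SEC24A (log2 fold change 0.29) and by ERLIN1 (-0.12). The ERLIN1 call was lost without AsPC-1 control 1, control 2 or siRNA library 2 (edgeR adjusted p = 0.103 to 0.131). Of 10 fatty acid genes controlled by the SREBPs 2 rose and 2 fell in AsPC-1, near the shares of all genes, and 2 rose and 1 fell in PANC-1. ACLY, which makes cytosolic acetyl-CoA, rose most in AsPC-1 (0.67, SE 0.04, edgeR adjusted p = 1.74e-12) and ME1, the malic enzyme, in PANC-1 (0.40). The fatty acid elongase ELOVL6, which carries 1 copy of CTCATGT, fell in both (-0.25 and -0.56). The ELOVL6 call in AsPC-1 was lost without control 2 (-0.16, edgeR adjusted p = 0.115), and that of ME1 in PANC-1 without control 1, control 3 or siRNA library 1 (0.0687 to 0.114).

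Among 6 genes of LXR and cholesterol export 2 rose in AsPC-1, led by the receptor NR1H2 (0.35), and 1 of 5 tested in PANC-1, the ubiquitin ligase MYLIP (0.41). For lipoprotein uptake and the lysosomal lipase 3 of 6 tested rose and 2 fell in AsPC-1, with the lipoprotein receptor SCARB1 (0.41) and the lysosomal membrane protein SCARB2 (-0.42) at the ends, and SCARB2 carries 1 copy of the word. In PANC-1 1 of 7 fell, the lysosomal acid lipase LIPA (-0.25). The PANC-1 call of MYLIP was lost without control 1, siRNA library 1 or siRNA library 3 (edgeR adjusted p = 0.0977 to 0.12), and that of LIPA without control 3 (0.0551). Of 14 sterol carriers at membrane contacts 4 rose and 5 fell in AsPC-1, and 1 rose and 3 fell in PANC-1.

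STARD3NL, a protein that tethers late endosomes to the endoplasmic reticulum, had the deepest fall of these carriers in both lines. STARD3NL went from 50.2 and 51.7 CPM to 23.9, 25.4 and 25.2 CPM in AsPC-1, and from 81.4, 83.0 and 85.7 CPM to 55.0, 54.7 and 60.0 CPM in PANC-1. The groups did not overlap in either line. The log2 fold changes were -1.05 (SE 0.07, edgeR adjusted p = 1.02e-11) and -0.56 (SE 0.06, edgeR adjusted p = 5.15e-05), and its longest 3' UTR holds the core TCATGT 3 times without the full word. The cholesterol transfer genes GRAMD1B in AsPC-1 (0.27) and GRAMD1C in PANC-1 (0.48) were the leading rises, and the GRAMD1C call was lost without control 1 (0.41, edgeR adjusted p = 0.076) or siRNA library 1 (0.40, 0.125). Of 11 genes of the isoprenoid branches 2 rose and 3 fell in AsPC-1, led by the prenyltransferase subunits FNTA (0.36) and RABGGTB (-0.38), and in PANC-1 0 were called by edgeR or DESeq2, with 1 lower at an unadjusted edgeR p under 0.05. For sterol metabolism of bile acids and oxysterols 1 of 6 genes was tested in AsPC-1 and 2 in PANC-1, with 0 called in either line by edgeR or DESeq2, and 1 lower in AsPC-1 at an unadjusted edgeR p under 0.05.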

How the data were processed

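Each library has 1 table of raw read counts by gene, deposited by the authors as whole numbers with no scaling. The submitters' processing notes list HISAT2, HTSeq and hg19, and give no versions. All 58735 identifiers occur in GENCODE release 29, a GRCh38 annotation, which gave names, positions and exon lengths, so no position came from the tables. For the siRNA comparisons the libraries of a line entered a quasi-likelihood model by themselves (edgeR 4.0.16, R 4.3.3, with filterByExpr, TMM, glmQLFit and a two-sided glmQLFTest), the difference between lines in 1 fit over 4 groups, and the controls in a fit of their own. P-values were adjusted by Benjamini-Hochberg over all genes tested, with a threshold of 0.05. Standard errors are the absolute log2 fold change over the square root of F. CPM values were computed with TMM factors over all 11 libraries, so their ratios can differ slightly from the fitted changes. The members and lists were chosen with earlier results of these data known. Members called in any siRNA comparison or in the difference are given by library, and related lists by counts and their leading called gene in each direction, except that the PANC-1 result of the list of SREBP processing and sterol-regulated degradation is not reported here. As alternatives, scaling was by RLE or upper quartile, the low-count filter was dropped or set at 5 CPM, DESeq2 1.42.0 replaced edgeR, all groups shared 1 fit, replicate numbers entered as a block, and single libraries were left out. Simulated counts with known changes were used to test the code.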

Additional observations from a re-analysis of the deposited data

Results flagged for a closer look

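The responses of MVK, SQLE and ACAT2 stood out because the lines differed in a direct test of the difference. For MVK the log2 difference (PANC-1 minus AsPC-1) was -0.4474 (edgeR interaction adjusted p = 0.0447). For SQLE the log2 difference was -0.2899 (edgeR interaction adjusted p = 0.038), and for ACAT2 it was -0.4055 (edgeR interaction adjusted p = 0.0254). Of 17 alternatives, 3 kept the call for MVK, 4 for SQLE and 10 for ACAT2. Opposite-strand genes also cover 52.3% of the ACAT2 exon sequence. In AsPC-1 each of the 3 siRNA libraries was above both controls for all 3 genes, and in PANC-1 the groups overlapped. The 3 genes were picked by a test on these same libraries, so this separation adds no support. The share of all genes with separate groups is not given here. No group had enough libraries for a test of single outlying samples.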

How the results depend on the processing

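The falls of NPC2, NCEH1 and CYP51A1 were called in both lines under every alternative run. Of the member fold changes recomputed, 1415 kept their direction and their side of the threshold, 77 lost and 28 gained a call, and 46 changed sign without being called before or after. Those of MYEOV kept their call in all 54 refits. Of the fold changes of the named related genes 350 stayed on their side, 37 lost a call and 10 changed sign without a call. The number of members called was 18 in AsPC-1 (13 to 18 without single libraries and 13 with DESeq2) and 22 between the controls (22 to 24 without single libraries). In PANC-1 it was 6 as reported and 3 to 6 without single libraries, and for the difference between lines 3 as reported, 0 to 4 without single libraries, 1 under RLE scaling, 1 under upper-quartile scaling and 6 with no low-count filter. Over all genes the PANC-1 count was 1356 as reported and 538 to 1712 without single libraries, and that of the difference 727 as reported and 305 to 1056 without single libraries. The cause of these shifts was not tested. Same-numbered libraries did not deviate together (correlations of -0.0368 and -0.0217 in AsPC-1 and of 0.00963, -0.392 and -0.0996 in PANC-1), so the numbers were not used as pairs. With 2 AsPC-1 controls, the deviations of the controls mirror each other by construction. Between differently numbered PANC-1 controls and siRNA libraries the correlations ran from -0.369 to 0.37, and a batch or pairing not shown by the labels was not tested. With the replicate number as a block, 17 members were called in AsPC-1, 3 in PANC-1, 0 for the difference and 24 between the controls, and over all genes 4260, 628, 241 and 11881. For the difference, 2813 genes had an unadjusted edgeR p under 0.05 in the reported fit. Depth limits STARD4, CYP51A1, TM7SF2, HSD17B7 and NPC2, which fell to between 62 and 116 counts in their lowest library, and 2 AsPC-1 controls leave little information on their spread.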
